A study of Mus musculus with 12 samples.

Results

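The genes described here are 9 receptors that set the tone of airway smooth muscle: the muscarinic receptors Chrm1, Chrm2 and Chrm3, the histamine receptor Hrh1, the leukotriene receptors Cysltr1 and Cysltr2, the bradykinin receptor Bdkrb2, the tachykinin receptor Tacr1 and the beta-adrenergic receptor Adrb1. They were chosen by name for their known role, with earlier results of these data known. A peak was taken when its assigned gene name was among them, or when the gene on which it was called was. This gave 27 of 27292 peaks for OVA mice and 28 of 26102 for PBS mice. All 9 receptors carried at least 1 peak in each group, as did 82% of the 14988 genes with a peak in either group. That share leaves out genes without any peak. The choice was made with earlier results known, so the comparison gives no result about the receptors.

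The peaks mark N6-methyladenosine (m6A), a methyl group on adenosines of messenger RNA, measured by MeRIP-seq of mouse lung. In this assay RNA fragments are pulled down with an antibody to m6A (IP) and sequenced beside the untreated fragments (input). The 12 libraries were 3 IP and 3 input libraries from OVA mice and as many from PBS mice. Peaks were called once per group, so a value in OVA or PBS lung stands for the pooled list of that group. OVA mice were female BALB/c mice aged 6 to 8 weeks that were sensitized with ovalbumin and aluminium hydroxide on days 0 and 7 and breathed 3% aerosolized ovalbumin for 30 min on each of days 14 to 20, and PBS mice of the same strain, sex and age received phosphate-buffered saline. Lung tissue was collected on day 21, after the airways had been provoked with methacholine. With pooled lists there is no value per mouse, so no difference between the groups could be tested from them. Every comparison here is a description of these lists. The paper reports peaks that differed in methylation between the groups, and those calls were not used here.

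Acetylcholine, histamine, leukotrienes, bradykinin and tachykinins narrow the airways by acting on G protein-coupled receptors, several of which release calcium in the muscle cell, while adrenergic agonists raise cyclic AMP and relax it. Many of these receptors also sit on nerves, glands, endothelium and leukocytes, and whole lung holds all of these cells. Asthma drugs block the muscarinic and leukotriene receptors or stimulate beta-adrenergic ones.

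The receptor peaks had a median fold enrichment of IP over input of 10 in OVA lung, where all peaks had 5.59, and of 8.65 in PBS lung, where all peaks had 5.44. At or above the median of their own list lay 19 OVA peaks of 27 and 20 PBS peaks of 28. Receptor peaks spanned the fold enrichments from 3.12 to 43.6 in OVA lung and from 2.31 to 38.2 in PBS lung, and peaks of the same gene could lie far apart, as in Hrh1 with 4.49 to 38 in OVA lung. By the authors' annotation 14 of the OVA peaks lay in a 3' UTR, 9 in another exon and 4 in a 5' UTR, and for the PBS peaks these numbers were 15, 9 and 4. Of the peaks annotated to a 5' UTR, a Chrm2 peak and a Cysltr2 peak of each list lay nearer the 3' end of the RefSeq gene, at 4928 bp in Chrm2 and at 4059 bp in OVA lung and 4119 bp in PBS lung in Cysltr2. The 3' UTR share of 51.9% in OVA lung and 53.6% in PBS lung was near that of all peaks, 52.7% in both.

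**Figure D1:**
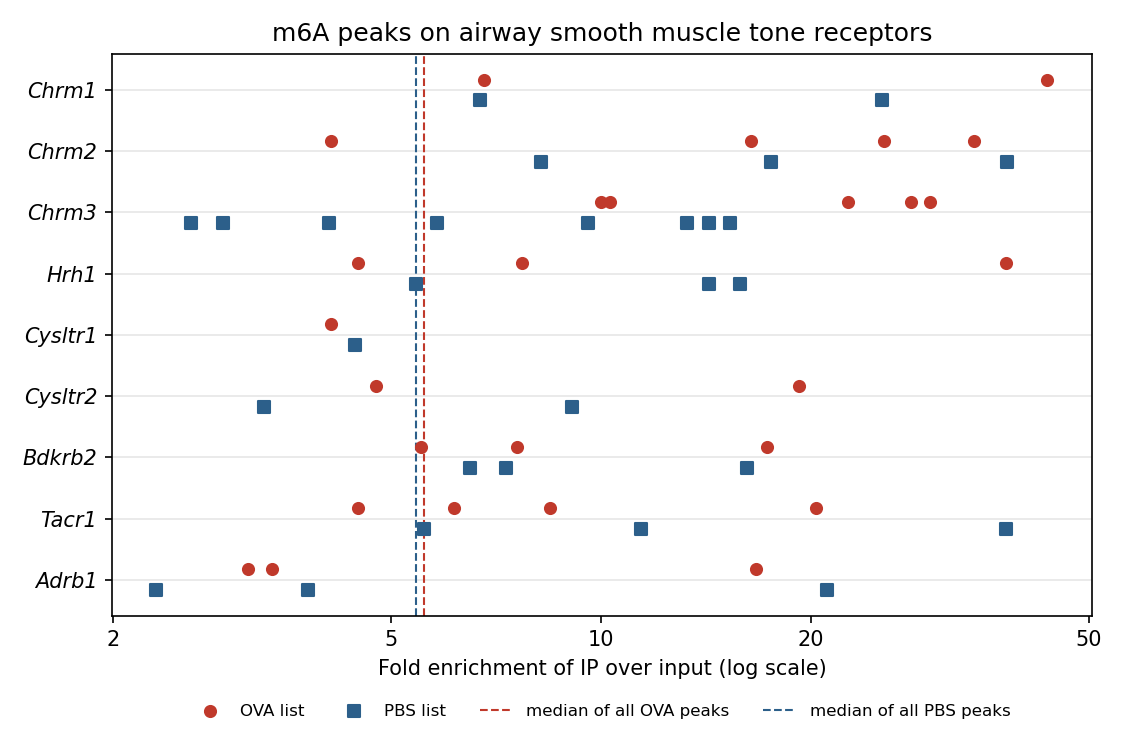
Fold enrichment of IP over input (horizontal log axis) of each receptor peak, 1 symbol per peak, with circles for the OVA list and squares for the PBS list and dashed lines at the medians of all peaks, 5.59 and 5.44. The Chrm3 circles lie from 10 to 29.6 and its squares from 2.59 to 15.3, while the Bdkrb2 symbols of both lists nearly coincide.

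Of the 27 OVA peaks, 25 shared at least 1 exonic base with a PBS peak, against 80.6% of all OVA peaks. Of the 28 PBS peaks, 27 shared a base with an OVA peak, against 85.5% of all PBS peaks. This difference depended on the overlap required, since with at least 50% of both peaks in common, 18 OVA and 18 PBS receptor peaks were shared, 66.7% and 64.3%, against 68.6% and 71.7% of all peaks. The 3 without a partner were an Hrh1 peak and a Tacr1 peak of the OVA list and a Chrm3 peak of the PBS list. Each OVA peak was then paired with the PBS peak that it overlapped most. Among the 25 pairs, the fold enrichment was at least 2 times higher in OVA lung in 6, against 7.63% of all 22009 pairs. In PBS lung it was at least 2 times higher in 1, against 6.8% of all pairs. The 6 pairs were 3 of Chrm3 and 1 each of Chrm2, Hrh1 and Cysltr2, and the single reverse pair was in Hrh1. The median ratio of OVA over PBS was 1.07 for the receptor pairs and 1.08 for all pairs, so the middle of the receptor pairs lay where that of all pairs did. A Chrm3 stretch was listed in OVA lung with overlapping entries, of which the entry with a ratio of 2.07 counts among the 6. The other, with 1.94, does not, but it overlapped another PBS entry by the same 662 bp, with a ratio of 2.09. Its place outside the 6 thus depends on which PBS entry is taken. In Chrm2, Chrm3 and Hrh1 a pair among the 6 joined a broad peak with a narrow one.

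The significance that the peak caller gave each peak often ran the other way from its fold enrichment. The lower p stood in PBS lung for 17 of the 25 receptor pairs, against 42.4% of all pairs. In 13 of the 25 the higher fold enrichment was in one list and the lower p in the other, against 31.4% of all pairs. At a given fold enrichment a peak with more reads has a lower p, and the lists give no read numbers, so the part of read depth or of transcript level in these values was not tested.

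Among the muscarinic receptors, Chrm3 encodes the M3 receptor, which couples to calcium release and is the main receptor for contraction by acetylcholine in airway muscle. Its fold enrichment was higher in OVA lung in all 5 pairs, with ratios from 1.72 to 3.98. These pairs held 4 distinct OVA peaks, since overlapping OVA entries of the exon were paired with the same PBS entry. All Chrm3 peaks but the PBS peak at the 5' end of the gene lay in the last few kilobases of a gene span of 485577 bp on the minus strand of chromosome 13. The OVA entry with the lowest p lay in the exon at chr13:9878157-9878818 with a fold enrichment of 27.8 and a log10 p of -61.6. The PBS entry paired with it, chr13:9878157-9878968, had a fold enrichment of 14.3 and a log10 p of -139. Fold enrichment and p thus ordered the lists in opposite ways at this site. Each list held another entry over the same bases, with a fold enrichment of 29.6 in OVA lung and 13.3 in PBS lung.

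Toward the 3' end of Chrm3 the OVA list had 3 further peaks in the 3' UTR. At chr13:9875874-9876383, 388 bp from the gene's end, the fold enrichment was 22.6 in OVA lung, and the overlapping PBS peak of 390 bp had 9.58. The log10 p values were -11 and -41.4, again lower in PBS lung. At chr13:9876442-9876742 the OVA peak of 301 bp had a fold enrichment of 10.3, and the PBS peak of 92 bp inside it had 2.59, the pair with the highest ratio in this gene. The OVA peak at chr13:9876861-9877311 had a fold enrichment of 10 and touched 3 PBS entries, with 5.82, 4.08 and 2.88. Over its span the PBS list thus gave several narrower and lower peaks where the OVA list gave a single one.

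The PBS list alone held a Chrm3 peak in the 5' UTR, at chr13:10360667-10360847, with a fold enrichment of 15.3, above 86.7% of the PBS peaks, and a log10 p of -4.83. It was the single receptor peak that reached into a promoter window of the RefSeq table (GRCm38.p6), which held windows for 7 of the 9 receptors. The Chrm3 window, chr13:10360754-10361053, lay inside the gene span, near its 5' end at position 10361062. The overlap ran over 94 bases, chr13:10360754-10360847. On the gene's strand these bases were searched for the usual m6A sequence context, written as A, G or T, then A or G, then A, then C, then A, C or T. The search found 2 matches, shown in capitals in the stretches around them because this was the peak without an OVA counterpart.
Chrm3, minus strand, chr13:10360803-10360831: gttcatgaggagGGACAgatctcctccca
Chrm3, minus strand, chr13:10360754-10360776: gagaaaagaataAAACAtataca
Such a match was present in 74.8% of all 32851 promoter windows over their last 94 bases, so it is common and does not mark a methylated base.

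Chrm2 encodes the M2 receptor, which lowers cyclic AMP in the muscle and restrains acetylcholine release from airway nerve endings. All its peaks were called on Chrm2 but carried the assigned name Gm43441, a processed pseudogene beyond the 3' end of Chrm2, so a search by gene name alone would miss this receptor. The peak at chr6:36523200-36523710 began and ended at the same bases in both groups, at a fold enrichment of 16.4 in OVA lung and 17.5 in PBS lung. Farther toward the 3' end, chr6:36525087-36525867 had 34.2 in OVA lung, and the PBS peak over it, chr6:36525057-36525897, had 38.2, above 98.3% and 99.1% of the peaks of their lists. These outer peaks were therefore at nearly the same level in both lists, while their log10 p was -94.6 and -107 in OVA lung and -250 and -298 in PBS lung. Between them the PBS list had a single peak of 1021 bp, chr6:36523919-36524939, with a fold enrichment of 8.21. The OVA list split the same stretch into chr6:36523979-36524279 with 4.11 and chr6:36524338-36524849 with 25.4. The ratio of 3.09 for the latter compares a narrow peak with the broad one, and the neighbouring ratio of 0.501 for the same PBS peak goes the other way.

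Chrm1 encodes the M1 receptor, found mainly on neurons, airway ganglia and glands. Its peak in the 3' UTR had a fold enrichment of 43.6 in OVA lung (chr19:8678923-8679612), the highest value of any receptor peak in either list, above 99.1% of all OVA peaks. The PBS peak, chr19:8678953-8679582, had 25.3, above 96.6% of the PBS peaks. Its log10 p was -22.4 in PBS lung and -13.8 in OVA lung, so the higher fold enrichment again had the weaker p. The other Chrm1 peak, upstream in the exon, differed little, with 6.8 at chr19:8678086-8678326 in OVA lung and 6.71 at chr19:8678146-8678386 in PBS lung.

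Hrh1 encodes the histamine H1 receptor, which contracts airway muscle and opens the endothelial barrier in response to histamine from mast cells. The OVA list had a peak of 928 bp in the 3' UTR, chr6:114481414-114482341, with a fold enrichment of 38 and a log10 p of -26.6. Over the same bases the PBS list had separate peaks of 181 bp, chr6:114481533-114481713, with 14.3, and of 271 bp, chr6:114481981-114482251, with 5.43. The log10 p values of these PBS peaks were -5.29 and -4.74, so here the OVA list was ahead in width, fold enrichment and p alike. The ratio is 7.00 against the PBS peak with the larger overlap and 2.66 against the other. Upstream in the exon the order turned around, with 7.7 at chr6:114480757-114480848 in OVA lung and 15.8 at chr6:114480787-114480997 in PBS lung. These 2 short peaks shared 62 bp, and their log10 p values were -4.01 and -4.5. A further OVA peak in the exon, chr6:114479831-114480221, had a fold enrichment of 4.49 and no PBS peak over it.

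**Figure D2:**
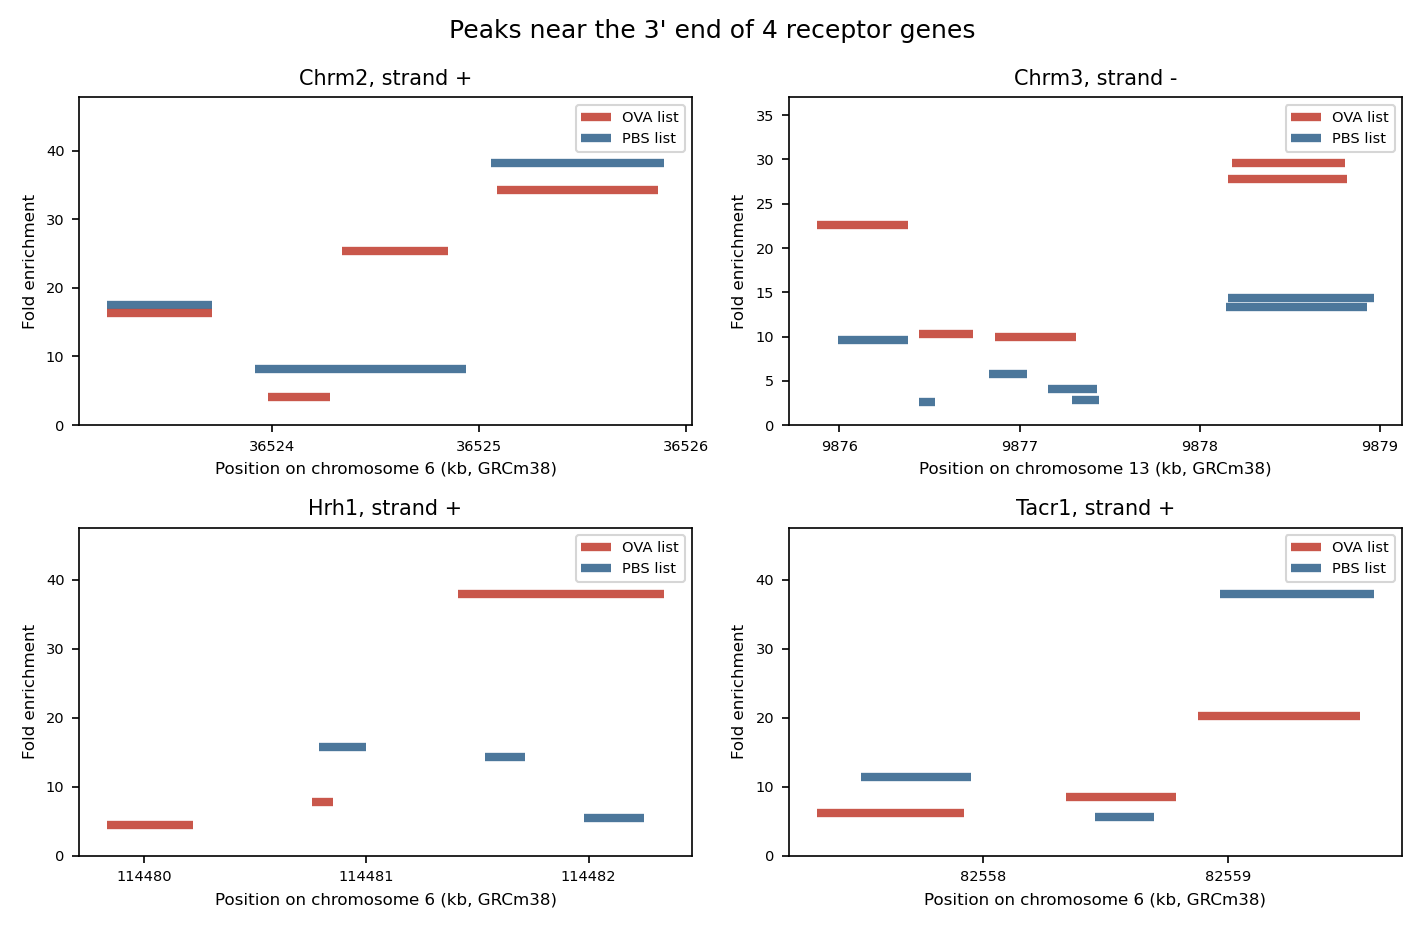
Peaks near the 3' end of Chrm2, Chrm3, Hrh1 and Tacr1, each drawn from its start to its end (horizontal axis, kb on GRCm38) at its fold enrichment (vertical axis), in red for the OVA list and blue for the PBS list. In Chrm3 the OVA peaks lie above the PBS peaks they overlap, in Tacr1 the peak nearest the 3' end is higher in the PBS list, at 38.0 against 20.3, and in Hrh1 a broad OVA peak covers 2 narrow PBS peaks.

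Among the leukotriene receptors, Cysltr2 binds leukotrienes C4 and D4 and is known from endothelium and leukocytes as well as muscle. Its main peak joined 2 exonic blocks across an intron, chr14:73029731-73032492 in OVA lung with a fold enrichment of 19.2 and chr14:73029791-73032432 in PBS lung with 9.1. The log10 p was -115 in OVA lung and -39.1 in PBS lung, so in Cysltr2 the higher fold enrichment and the lower p stood together. The smaller neighbouring peak pointed the same way, with 4.77 at chr14:73029253-73029583 in OVA lung and 3.29 at chr14:73029462-73029732 in PBS lung. The annotation named a retained-intron transcript of Cysltr2 that shares no base with these peaks.

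Cysltr1 encodes the receptor through which leukotriene D4 contracts airway muscle and which montelukast blocks. It had 1 peak in each list, in the 5' UTR, chrX:106603409-106603679 in OVA lung, which reached the start of the gene, and chrX:106603409-106603470 in PBS lung, which began 209 bp inside it. The fold enrichments of 4.11 and 4.44 were below the median of all peaks in both lists. The peak was the weakest of the receptors' strongest peaks in either list, and it was 271 bp wide in OVA lung and 62 bp wide in PBS lung.

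Bdkrb2 encodes the constitutive B2 receptor for bradykinin. Its 3 peaks in each list were called on Bdkrb2 but assigned by name to Bdkrb1, the inducible bradykinin receptor gene that follows it on chromosome 12. Of the peaks that carried the name Bdkrb1, they made up 3 of 5 in OVA lung and 3 of 7 in PBS lung. The strongest, chr12:105592281-105593446 in the 3' UTR, had the same start and end in both lists and a fold enrichment of 17.3 in OVA lung and 16.2 in PBS lung. The exon peaks, chr12:105591624-105592133 with 7.58 and chr12:105591654-105592133 with 7.32, were as close. The peaks 7 bp from the gene's end had 5.53 in OVA lung and 6.49 in PBS lung. In fold enrichment Bdkrb2 was thus the receptor with several peaks whose lists differed least, with ratios from 0.852 to 1.07. Its log10 p values were lower in PBS lung at each of these peaks, with -296 against -124 in OVA lung for the strongest, -186 against -93.7 in the exon and -62.4 against -26.8 at the gene's end.

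Tacr1 encodes the NK1 receptor for substance P, a tachykinin of sensory nerves that acts on airway vessels, glands and muscle. Its 3' UTR peaks were called on Tacr1 and assigned to Gm44145, an antisense transcript beyond the 3' end of Tacr1, so in PBS lung no peak carried the name Tacr1. The peak nearest the 3' end had a fold enrichment of 20.3 in OVA lung (chr6:82558877-82559536) and 38.0 in PBS lung (chr6:82558967-82559596). Its log10 p of -68.7 in OVA lung and -12 in PBS lung ran the other way. At chr6:82557322-82557921 the OVA list had 6.16, and the PBS peak chr6:82557501-82557951 had 11.4. The peak between them had the reverse order, with 8.45 at chr6:82558338-82558788 in OVA lung and 5.59 at chr6:82558458-82558698 in PBS lung. Tacr1 also had a peak in the 5' UTR in OVA lung alone, chr6:82403043-82403462, with a fold enrichment of 4.49 and a log10 p of -9.28.

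Adrb1 encodes the beta-1 adrenergic receptor, which raises cyclic AMP, and was the single receptor among the 9 that is coupled to relaxation. Its largest peak had the same start and end in both lists, chr19:56723455-56733053, and joined 3 exonic blocks. The fold enrichment was 16.7 in OVA lung and 21.1 in PBS lung, and the log10 p was -883 and -2220, the lowest of all receptor peaks. The latter blocks, chr19:56725338-56725539 and chr19:56732884-56733053, lay beyond the RefSeq end of the gene at position 56725150. The annotation names for this peak an Adrb1 transcript of the class processed transcript, not protein-coding, which starts inside the gene. The peaks at the start of the gene were low, with 3.12 at chr19:56722617-56722947 and 3.38 at chr19:56723066-56723336 in OVA lung. In PBS lung the peaks over them had 2.31 at chr19:56722527-56722857 and 3.81 at chr19:56723006-56723396.

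Most of these receptors had most of their peaks toward the 3' end of the gene, which the rule did not use. In Chrm1, Chrm2, Chrm3, Hrh1, Cysltr2, Bdkrb2 and Tacr1 the largest distance to the gene's 3' end was 5280 bp, in Chrm1. This leaves out the peaks at the Tacr1 and Chrm3 5' ends. The gene spans were 19602 to 485577 bp. No such distance was computed for other genes. The 3' UTR share of the receptor peaks, 51.9% in OVA lung and 53.6% in PBS lung, was near the 52.7% of all peaks.

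Other receptors of airway muscle and its neighbours were read in the same way, leaving out peaks called on the 9 receptors, and each value is that of the gene's highest peak in the group. Of 35 related receptors, 27 had a peak in both lists, 2 in OVA lung alone and 6 in neither, and their median fold enrichment was 6.72 over 72 OVA peaks and 5.45 over 77 PBS peaks. Of their 64 pairs, 4 were at least 2 times higher in OVA lung and 6 in PBS lung. Over all pairs these shares were 7.63% and 6.8%. The highest were the adenosine receptor Adora2b with a fold enrichment of 29.9 in OVA lung and 38.8 in PBS lung, the prostaglandin D2 receptor Ptgdr2 with 32.9 and 18.4, and the relaxant prostaglandin E2 receptor Ptger2 with 32.1 and 12.7. Ptgdr, the other prostaglandin D2 receptor, was in OVA lung alone with up to 5.24, as was the histamine receptor Hrh4 with 12.3.

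Of 26 genes that make or break down the ligands, 11 had peaks in both lists and 15 in neither, the latter including Chat, Hdc, Alox5 and Tac1, which make acetylcholine, histamine, leukotrienes and substance P. A missing peak does not show that a gene was not expressed. Among the highest were Ache, which cleaves acetylcholine, with 20.5 in OVA lung and 52.3 in PBS lung, and Bche, another cholinesterase, with 7.7 and 12.1.

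Of 31 genes of contractile signalling, 30 had peaks in both lists and Itpr3, a calcium release channel, in OVA lung alone with 2.14. Itpr1, the related channel opened by the messenger that the M3, H1 and leukotriene receptors generate, had a 5' UTR peak with a fold enrichment of 158 in OVA lung and 80.1 in PBS lung. It was followed by the cation channel gene Trpc6 with 19.6 and 13.5 and the G protein gene Gna13 with 14.4 and 19.2. Of 21 genes of relaxant signalling, 16 had peaks in both lists, led by the phosphodiesterase gene Pde4d with 26.3 and 20.8 and the adenylyl cyclase genes Adcy6 with 22.8 and 24.2 and Adcy9 with 24 and 14.6. In 1 list alone were Prkar1a with 2.57 and Prkacb with 1.2 in OVA lung and Prkaca with 3.36 in PBS lung, which encode protein kinase A subunits, while Prkar2b, another subunit gene, had no peak. Of 12 genes that desensitize receptors, 10 had peaks in both lists, led by the receptor kinase gene Grk2 with 23.1 and 36.2, Rgs3 with 26.7 and 17.4 and Rgs1 with 25.5 and 14.1, while Rgs4 was in OVA lung alone with 3.01.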

How the data were processed

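MeRIP-seq libraries of OVA and PBS mouse lung were processed by the authors. Per the study's methods, reads were trimmed with FASTP and aligned to the Ensembl release 101 mouse genome with HISAT2, peaks were called with exomePeak, and peaks were annotated with ChIPseeker. The submitters' processing notes name HISAT2 and ChIPseeker, without versions. Fold enrichment, as deposited, is a linear ratio, IP over input within a peak. The deposited log10 p and log10 FDR of each peak are scores of the peak caller. Peak lists were given per group, and how the 3 libraries of a group were combined is not given in the sources used here. The lists give no read counts, so the depth behind each peak is unknown and no interval was computed.

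Coordinates are 1-based on GRCm38. Of the peaks called on a protein-coding RefSeq gene (GRCm38.p6), 97.7% of the OVA list and 97.8% of the PBS list overlapped that gene. Peaks were assigned to the receptors by assigned gene name or called gene, Ensembl identifiers being matched without their version, and all 9 receptors matched. Peaks of the lists were taken as shared with at least 1 bp of overlap between exonic blocks and paired by the largest overlap, and the share of lower values in a list was used as a percentile. The overlap step was tested on simulated peaks. Python 3.11.15, numpy 2.4.6, pandas 2.3.3 and matplotlib 3.10.9 were used. All receptors and each of their peaks were named. From each list of other genes, at most 3 genes with the highest fold enrichment at an FDR under 0.05 and at most 3 genes with a peak in 1 list only, by lowest p, were named with values. A gene that this rule selects is not reported here. Genes without peaks named for their role were chosen after their values were seen. The receptors and the lists of other genes were chosen with earlier results of these data known. Proteins were not used here, and of peak sequences only the part of a Chrm3 peak inside a RefSeq promoter window was.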

Additional observations from a re-analysis of the deposited data

How the results depend on the processing

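No paired analysis was possible because the lists hold no values per mouse, and for the same reason no library could be left out in turn. Of 59 alternatives over 11 results, 44 left the value as it was or, for a count, within 1.5 times. By assigned name alone, the receptor peaks fell to 17 in OVA lung, 15 of them overlapping a PBS peak, the PBS median fold enrichment was 6.71, and 7 receptors had a peak in OVA lung and 6 in PBS lung, since Chrm2 and Bdkrb2, and in PBS lung Tacr1, carry other names. With protein-coding assigned transcripts alone, 16 OVA and 18 PBS peaks were left, with medians of 8.85 and 7.01. With the same start and end required, 3 peaks of each list were shared, 11.1% of the OVA and 10.7% of the PBS receptor peaks, against 10.3% and 10.7% of all peaks. With at least 50% of both peaks in common, 18 of each list were shared, below the shares of all peaks. Of the 25 pairs, 6 were higher in OVA lung and 1 in PBS lung. At a ratio of 1.5 these were 10 and 4, against 18.2% and 12.7% of all pairs, and at a ratio of 3 they were 3 and 0, against 2.86% and 3.15%. After each list was divided by its median over all pairs they were 5 and 2, against 6.62% and 7.44%. With at least 50% of both peaks shared, 18 pairs were left, 4 higher in OVA lung and 0 in PBS lung, against 6.43% and 4.28%. Among alternatives chosen after seeing the data, counting overlapping Chrm3 entries once gave 26 peaks in each list. Another of these counted pairs from the PBS peaks. It gave 9 of 27 higher in OVA lung and 1 in PBS lung, against 10.3% and 4.85% of all pairs. There, the same OVA peak of Hrh1 or Chrm3 stood in several pairs. Neither an FDR under 0.05 nor a minimum fold enrichment of 2 removed a receptor peak.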

Other observations

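Markers of the cells that carry these receptors were read in the same lists, which give methylation peaks and no expression level, so the share of each cell type in the lung was not measured. Each value is that of the gene's highest peak in the group, and in Synpo2, Myocd, Foxj1 and Cd3e the highest OVA and PBS peaks did not overlap, so their values are not a comparison of the same peak. Of 10 smooth muscle markers, 5 had peaks in both lists, and the actin genes Acta2 and Actg2 in neither. The highest were Lmod1 with a fold enrichment of 14 in OVA lung and 8.42 in PBS lung, Synpo2 with 10.1 and 8.89, and Myocd, the regulator of smooth muscle genes, with 9.68 and 10.4. Tagln with 1.27 and Smtn with 1.61 were in OVA lung alone, and Cnn1 with 1.36 in PBS lung alone. Of 10 lung epithelium markers, 7 had peaks in both lists, led by Foxj1 of ciliated cells with 15.8 and 17.3, Ager with 9.24 and 4.59 and Lamp3 with 4.02 and 7.09. All 5 endothelium markers had peaks in both lists, led by Kdr with 15.6 and 14.2, Cdh5 with 11.1 and 9.5 and Tek with 10.1 and 9.75.

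Of 10 leukocyte markers, Cd3e with 5.9 in OVA lung and 10.4 in PBS lung and Ptprc with 2.64 and 2.48 had peaks in both, and the mast cell protease gene Mcpt4 with 8.73 in OVA lung alone. The other 7, the eosinophil genes Siglecf, Epx and Prg2 among them, had no peak. Of 5 neuron markers Elavl3 alone had peaks, with 5.13 in OVA lung and 2.33 in PBS lung. The part of the cell makeup in the receptor values was not tested.

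Entries that overlap another entry called on the same gene made up 576 OVA peaks on 215 genes and 531 PBS peaks on 199 genes, and among the receptors were found in Chrm3 alone. Inside the gene spans of the receptors, 2 peaks of the PBS list were called on other genes and left out, on the small RNA gene Gm22820 within Chrm1 with a fold enrichment of 9.38 and on the intronic transcript Gm47405 within Chrm3 with 10.9.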
